A study of Homo sapiens with 4 samples.

Results

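The regions described here are the called H3K27me3 peaks on both arms of human chromosome 9 in HaCaT cells. All peaks of that chromosome in both deposited lists were taken and split at the centromere, with the long arm starting after 65000000 and the short arm ending before 47000000 in genome build hg19. This gave 1376 peaks of 22045 in the series, of which 810 came from the AKBA list and 566 from the DMSO list. The long arm held 747 AKBA and 520 DMSO peaks, the short arm held 63 AKBA and 46 DMSO peaks, and 0 peaks fell between the limits.

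The mark was mapped by chromatin immunoprecipitation with an anti-H3K27me3 antibody and sequencing. One culture received AKBA for 12 hours and the control culture DMSO, a common solvent. Each condition had 1 H3K27me3 library, and the 2 input DNA libraries of the series have no values used here. All libraries came from HaCaT, an immortalised line of human keratinocytes, so a single cell line stands for the epidermis. AKBA is a common abbreviation of an acetylated boswellic acid, which the labels do not spell out, and no dose is given in the sources used here. The identity of the cells could not be checked against keratinocyte markers, because no annotation of hg19 was used here.

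H3K27me3 is placed by Polycomb repressive complex 2 and marks genes that are kept silent, in keratinocytes above all developmental regulators of other lineages. It spreads over neighbouring nucleosomes, so a strongly marked locus gives a wide peak or several peaks close together. The short arm of chromosome 9 is known for CDKN2A and CDKN2B, which encode inhibitors of the cyclin-dependent kinases, and the long arm for PTCH1, the Hedgehog receptor, and NOTCH1, a receptor that drives keratinocyte differentiation. HaCaT is known for extra copies of the long arm. A peak list holds no measure of copy number, so the part of copy number in the results below was not tested, and no peak was assigned to a gene. With 1 library per condition no p-value can be given, and every difference stands without replicates. The intervals below are exact 95% Clopper-Pearson binomial intervals, which cover counting error alone and treat peaks as independent, and the sequencing depth is unknown.

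The long arm was far more densely marked than the short arm in both conditions. From its first to its last peak the long arm spanned 74.5 Mb and the short arm 45.2 Mb. The AKBA list had 10.0 peaks per Mb on the long arm and 1.39 on the short arm, a ratio of 7.20 (interval 5.56 to 9.46). The DMSO list had 6.98 peaks per Mb on the long arm and 1.02 on the short arm, a ratio of 6.86 (interval 5.07 to 9.49). The long arm thus carried 92.2% of the AKBA peaks and 91.9% of the DMSO peaks of the chromosome on 62.2% of the spanned length. Covered bases showed the same order. The AKBA list had 12.1 kb of called bases per Mb on the long arm and 1.62 kb on the short arm, and the DMSO list 6.21 and 0.847 kb.

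Peaks stood closer together on the long arm, which largely follows from its greater density and is not a separate result. The median distance from one AKBA peak to the next was 13.3 kb on the long arm and 171 kb on the short arm, and for DMSO peaks it was 18.8 and 323 kb. The share of these distances of up to 5 kb differed less, with 29.4% and 21.0% in the AKBA list and 28.7% and 26.7% in the DMSO list.

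**Figure D1:**
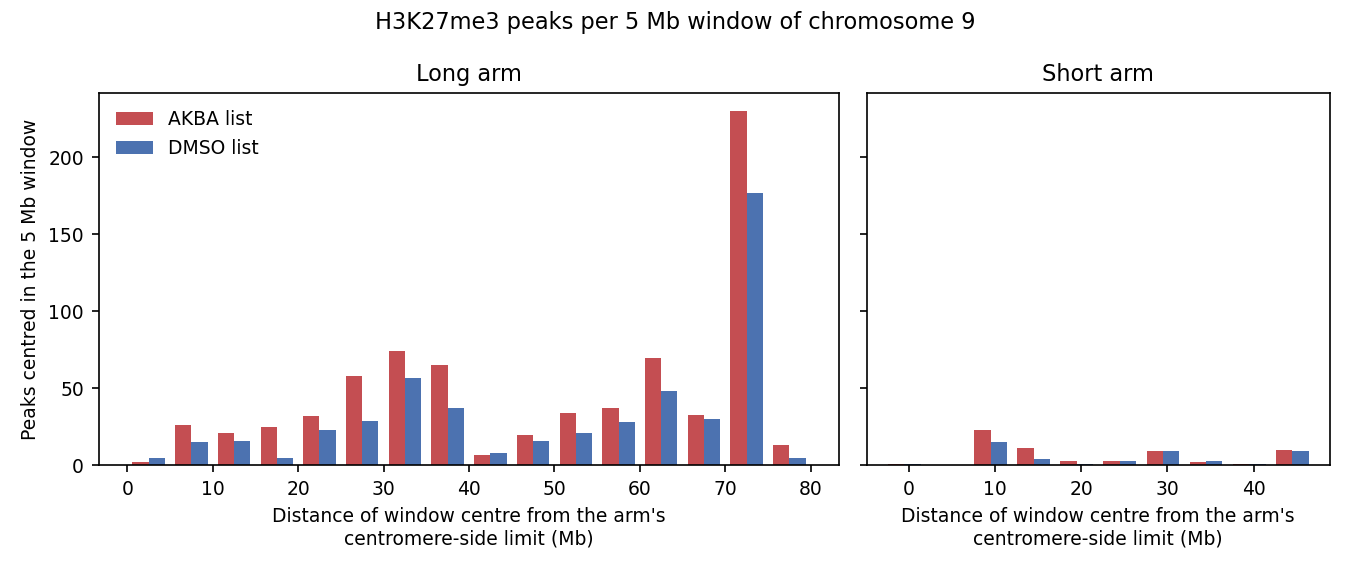
Number of H3K27me3 peaks centred in each 5 Mb window of the long arm (left) and the short arm (right), against the distance of the window from the centromere-side limit of the arm in Mb. Red bars are the AKBA list and blue bars the DMSO list, 1 library each. The tallest pair of bars, 230 AKBA and 177 DMSO peaks, is near the end of the long arm, and no short-arm window has more than 23 AKBA peaks.

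The marking of the long arm was uneven. The window from 135 to 140 Mb held 230 AKBA and 177 DMSO peaks, the highest number of all 576 windows of 5 Mb with a peak in the genome in either list. It carried 30.8% of the AKBA peaks and 34.0% of the DMSO peaks of the arm. Of its bases, 324 kb were called in the AKBA list and 166 kb in the DMSO list. Within this window the marking was spread over neighbouring stretches of 1 Mb. They held 57, 41, 56, 56 and 20 AKBA peaks in order of position, and 43, 31, 44, 43 and 16 DMSO peaks.

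A second dense stretch ran from 90 to 105 Mb. Its 3 windows held 58, 74 and 65 AKBA peaks and 29, 57 and 37 DMSO peaks. The window from 125 to 130 Mb held 70 AKBA and 48 DMSO peaks. Between these stretches the window from 105 to 110 Mb held 7 AKBA and 8 DMSO peaks, and the window next to the centromere, from 65 to 70 Mb, held 2 AKBA and 5 DMSO peaks. The median window of the long arm had 32.5 AKBA and 22 DMSO peaks, against 14 and 10 over all windows of the genome.

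On the short arm most windows were nearly empty in both lists. The median window had 3 AKBA and 3 DMSO peaks. The most marked was the window from 35 to 40 Mb, with 23 AKBA and 15 DMSO peaks, followed in the AKBA list by the window from 30 to 35 Mb with 11 and the first window of the arm with 10. The window from 5 to 10 Mb held 1 peak of each list and the window from 40 to 45 Mb held 0. The longest peak-free stretch within the arm ran from 38426688 to 45352144.

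The arm difference did not rest on the densest window alone, although it was smaller without it. When the window from 135 to 140 Mb was left out, a choice made after seeing the data, the long arm had 7.44 AKBA and 4.93 DMSO peaks per Mb, 5.34 and 4.85 times the density of the short arm.

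To see how the contrast between the arms compares with other chromosomes, each chromosome was split at its longest peak-free stretch, and 20 chromosomes with at least 10 Mb on both sides were used. On chromosome 9 this split gives the same arms. Elsewhere the stretch need not be the centromere. The denser side of chromosome 9 had 7.20 times the AKBA density of the sparser side, and 6.86 times the DMSO density. Among the other chromosomes the AKBA ratio ran from 1.04 to 5.38 with a median of 1.46, and the DMSO ratio from 1.09 to 4.80 with a median of 1.5. Chromosome 4 was the next highest in both lists. Of the 38 sides of the other chromosomes, 3 were denser than the long arm of chromosome 9 by AKBA peaks and 4 by DMSO peaks, and by either list 2 were sparser than the short arm. Both arms thus stood near opposite ends of the range of these sides, which need not be chromosome arms. A ranking among the arms of other chromosomes was not computed.

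**Figure D2:**
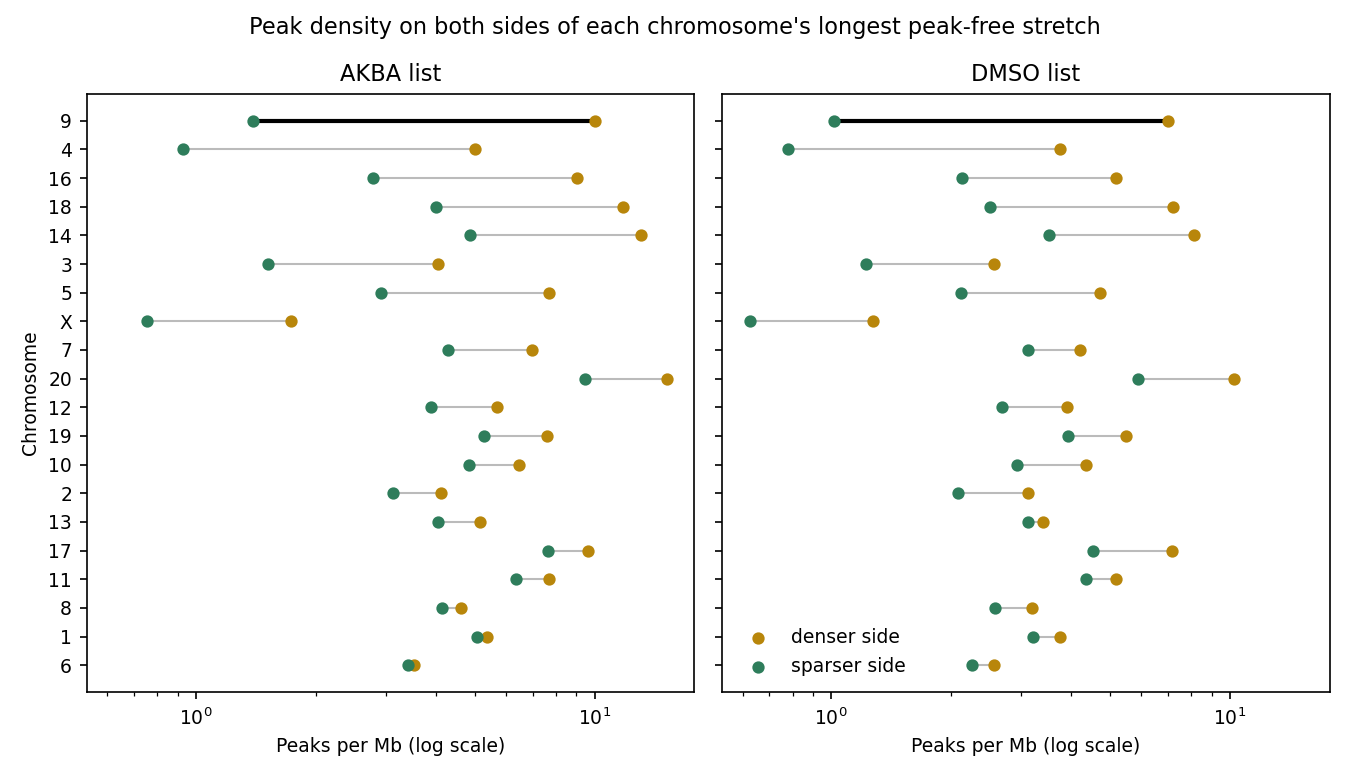
Peaks per Mb (log scale) on the denser side (ochre) and the sparser side (green) of the longest peak-free stretch of 20 chromosomes, in the AKBA list (left) and the DMSO list (right), ordered by the AKBA ratio. Chromosome 9, drawn with a black line, has the greatest distance between its sides, 7.20-fold for AKBA peaks and 6.86-fold for DMSO peaks.

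The next comparison concerned AKBA against DMSO on each arm. Both arms held more AKBA than DMSO peaks, in proportions close to that of the genome. The ratio of peak numbers was 1.44 on the long arm (interval 1.28 to 1.61) and 1.37 on the short arm (0.922 to 2.05), against 1.48 (1.44 to 1.53) on the other chromosomes. The interval of the short arm includes equal numbers. With the same number of highest-scoring peaks from each whole list, the ratio was 0.935 on the short arm and 1.04 on the long arm. That setting fixes the genome ratio at 1. Covered bases came to 899 kb (AKBA) and 463 kb (DMSO) on the long arm, a ratio of 1.94. On the short arm they came to 73.3 kb (AKBA) and 38.3 kb (DMSO), a ratio of 1.91. The rest of the genome had a ratio of 1.94. Among peaks of at least 1 kb the number ratios were 2.20 on the long arm and 2.64 on the short arm. The difference in ratio between the arms was not tested, since each condition has 1 library.

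Windows followed the same order of marking in both lists. Over the 26 windows of the arms, 1 of them empty, the covered bases of the lists had a Spearman correlation of 0.964, which describes windows that share libraries and sequence content. AKBA peaks covered more bases in 15 of the 16 long-arm windows and in 7 of the 9 short-arm windows with a peak, against 93.6% of the windows of the genome. A ratio of at least 2 was reached in 5 of 16 long-arm and 2 of 9 short-arm windows, against 42.2% of genome windows with bases of both lists. With peaks of at least 1 kb, 12 long-arm windows reached this limit, and with a score of at least 3, 8 did. The genome share was not computed under these filters, so these 2 counts cannot be set against 42.2%. The median ratio of windows was 1.96 on the long arm and 1.52 on the short arm, against 1.93 over the genome.

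A ratio of 0.5 or less was found in 1 window of each arm, against 0.713% of genome windows, which is 4 of 561. Both rest on few peaks. In the window from 65 to 70 Mb AKBA bases came to 1.39 kb and DMSO bases to 3.32 kb, a ratio of 0.42. In the window from 5 to 10 Mb, with 1 peak of each list, they were 0.266 and 0.745 kb, a ratio of 0.357. No short-arm window passed this limit when windows were shifted by 2.5 Mb.

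**Figure D3:**
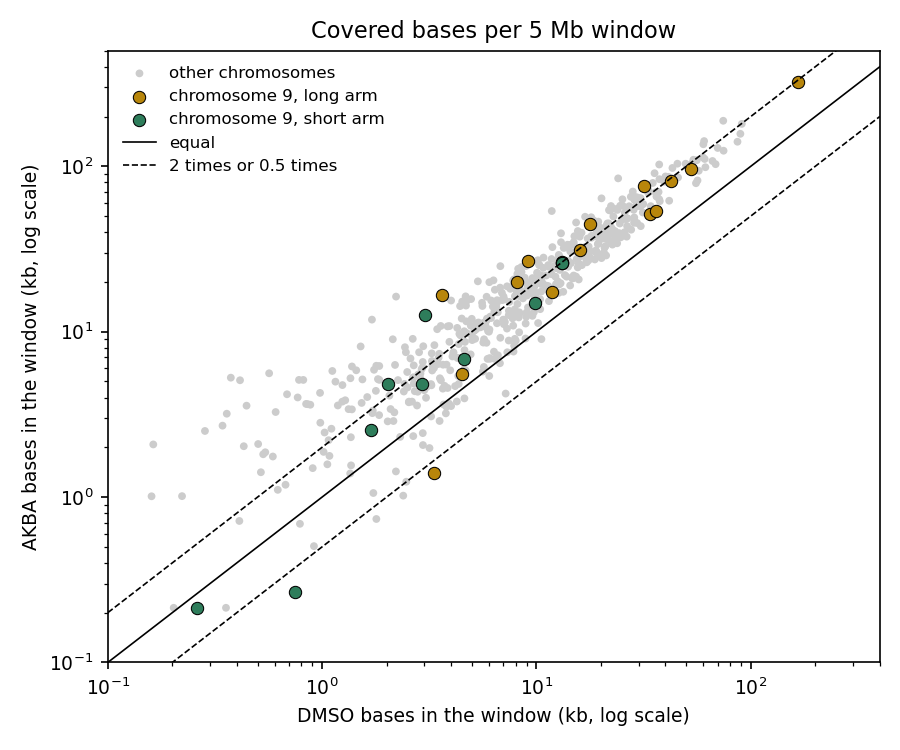
Bases covered by AKBA peaks against bases covered by DMSO peaks in each 5 Mb window with bases of both lists (kb, log scales). Ochre points are long-arm windows, green points short-arm windows and grey points windows of other chromosomes. The solid line marks equal bases and the dashed lines 2 times and 0.5 times. The chromosome 9 windows lie in the band of the other windows, apart from a few with little covered sequence.

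Among the windows with at least 10 peaks, the highest ratio on the long arm was in the window from 80 to 85 Mb. It held 25 AKBA and 5 DMSO peaks, with 16.6 and 3.61 kb of covered bases, a ratio of 4.61. Of the 25 AKBA peaks 1 overlapped a DMSO peak, against 32.2% of the whole AKBA list, with just 5 DMSO peaks there to overlap. The next was the window from 115 to 120 Mb, where AKBA bases came to 26.6 kb and DMSO bases to 9.11 kb, a ratio of 2.92. The lowest were from 105 to 110 Mb, with 5.54 and 4.51 kb and a ratio of 1.23, and from 110 to 115 Mb, with 17.4 and 11.9 kb and a ratio of 1.46. The window with most bases, from 135 to 140 Mb, had a ratio of 1.96, close to that of the genome.

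Just 4 short-arm windows held at least 10 peaks. The ratio was highest from 30 to 35 Mb, at 4.18, with 12.7 kb in 11 AKBA peaks and 3.03 kb in 4 DMSO peaks. All 4 of these DMSO peaks overlapped an AKBA peak, against 54.5% of the whole DMSO list. Of the 11 AKBA peaks 3 overlapped a DMSO peak, near the 32.2% of the whole AKBA list. From 35 to 40 Mb the ratio was 1.99, with 26.2 and 13.2 kb. In the first window of the arm it was 1.52, with 14.9 and 9.84 kb, and from 15 to 20 Mb it was 1.48, with 6.79 and 4.60 kb. Single windows moved with the settings. The window from 30 to 35 Mb went down to 2.40 with a score of at least 3 and up to 6.61 with peaks of at least 1 kb, the window from 15 to 20 Mb turned to 0.926 after merging across 5 kb, and the window from 105 to 110 Mb reached 4.24 with the score minimum and 2.43 with the width minimum. The window from 80 to 85 Mb was at 2.78 with equal numbers of peaks from both lists, that from 115 to 120 Mb at 13.3 with the width minimum, and that from 65 to 70 Mb at 0.243 after merging.

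Peak widths were similar on the arms within each list. The median AKBA peak was 820 bp wide on the long arm and 939 bp on the short arm, against 742 bp in the genome. The median DMSO peak was 561 bp on the long arm and 581 bp on the short arm, against 552.5 bp in the genome. The quartiles of AKBA width were 426.5 and 1380 bp on the long arm and 342 and 1453 bp on the short arm, so the arms overlapped widely. Peaks of at least 2 kb made up 15.1% of AKBA peaks on the long arm and 15.9% on the short arm, against 14% of the whole AKBA list. In the DMSO list they made up 10.0% on the long arm and 6.52%, 3 peaks, on the short arm, against 9.43% of the whole list. Peaks of at least 5 kb made up 2.28% of AKBA peaks (17) and 1.54% of DMSO peaks (8) on the long arm, against 1.84% and 0.787% of the whole lists. The short arm had 0 of 63 AKBA and 0 of 46 DMSO peaks of this width. A count of 0 was taken to allow up to 3 peaks, an approximation and not the exact interval. This allows shares of up to 4.76% and 6.52%, so no difference from the long arm was detectable at this number of peaks.

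The authors' peak scores, on a scale that is not stated, were likewise close. The median AKBA score was 3.05 on the long arm and 3.03 on the short arm, and the median DMSO score was 2.91 and 3.22. The top decile of the AKBA list by score held 9.37% of the long-arm peaks and 9.52% of the short-arm peaks. The top decile of the DMSO list held 11.2% and 6.52%, the last being 3 peaks.

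The widest marked places of the chromosome were on the long arm and were marked in both conditions. Over the genome, 89% of AKBA and 99.3% of DMSO peaks of at least 2 kb overlapped the other list. The widest AKBA peak, from 96710837 to 96723733, spanned 12897 bp, was eleventh by width in the AKBA list, and 3 DMSO peaks together took up 81.4% of its length. The next, from 135453625 to 135466409, spanned 12785 bp, and 4 DMSO peaks covered 77.5% of it. The third, from 139083727 to 139095538, spanned 11812 bp. It overlapped the widest DMSO peak of the arm, of 12182 bp, over 99.4% of its length. The second widest DMSO peak ran from 133534049 to 133543997, with 9949 bp, and an AKBA peak of 11297 bp took in 96.9% of it. The third, from 126777250 to 126783677, was 6428 bp wide and met an AKBA peak of 6348 bp.

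The long-arm peaks with the highest scores were other peaks than the widest, so their smaller width follows from the selection. Those of the AKBA list, of 1898, 2995 and 3332 bp, were wider than the AKBA median of 820 bp on the arm. Those of the DMSO list, of 3023 and 749 bp, were above the DMSO median of 561 bp, and that of 191 bp was below it. The top AKBA peak, from 137392531 to 137394428, had a score of 12.7, the fourth highest of the whole AKBA list, and a width of 1898 bp, and a DMSO peak of 1254 bp lay inside it. AKBA peaks from 100263655 to 100266649 and from 139738485 to 139741816, with scores of 10.7 and 10.4, had DMSO peaks over 98.9% and 98.4% of their width. The top DMSO peak, from 73026361 to 73029383, scored 7.88 and was contained in a 3381 bp AKBA peak. The second, from 137975328 to 137975518, was 191 bp wide with a score of 7.59 and had no AKBA overlap, at a distance of 1.53 kb from the closest AKBA peak. The third, from 135055067 to 135055815, scored 7.37 and was contained in an AKBA peak.

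On the short arm 2 loci held most of the widest peaks. The AKBA peak from 14345431 to 14349999 was 4569 bp wide and met 2 DMSO peaks, of which the wider, 2459 bp, was the third widest DMSO peak of the arm. Near 37 Mb the AKBA peaks from 37033854 to 37037976 and from 37024330 to 37028097, of 4123 and 3768 bp, lay beside and over the widest DMSO peak of the arm, from 37026017 to 37030495, of 4479 bp. The second widest DMSO peak, from 971619 to 974368, was 2750 bp wide and met an AKBA peak of 3339 bp. None of these reached 5 kb.

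By score, the top AKBA peak of the short arm ran from 841655 to 843219, with a score of 6.31, and overlapped a DMSO peak of 666 bp. The second was the peak from 37024330, with a score of 6.13. The third, from 2875530 to 2876255, had a score of 5.65, and the closest DMSO peak was 251.9 kb away. The 3 highest-scoring DMSO peaks of the arm, at 23831234, 45352145 and 32782823, had scores of 5.41, 4.92 and 4.77 and widths of 424, 262 and 805 bp. Each overlapped an AKBA peak.

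The last comparison asked how often the same place was called in both conditions. An overlap of at least 1 bp with the DMSO list was found for 34.0% of AKBA peaks on the long arm (interval 30.6 to 37.5%) and for 47.6% on the short arm (34.9 to 60.6%), against 32.2% of the whole AKBA list. An overlap with the AKBA list was found for 55.4% of DMSO peaks on the long arm (51.0 to 59.7%) and for 71.7%, 33 of 46, on the short arm (56.5 to 84.0%), against 54.5% of the whole DMSO list. The long arm was thus close to the genome in both lists. The short-arm shares were higher, with intervals that overlap those of the long arm, and the difference between the arms was not tested. In the DMSO list the order of the arms turned when a score of at least 3 was required in both lists. There 64.8% of long-arm and 64.3% of short-arm peaks were shared. Bases called in both lists came to 33.3% of AKBA bases and 64.7% of DMSO bases on the long arm, and to 35.5% and 67.9% on the short arm, so the arms differed less by bases than by peaks. With a reciprocal overlap of at least 50%, the AKBA shares were 14.2% on the long arm and 19.0% on the short arm, and the DMSO shares 20.4% and 26.1%.

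Wide peaks are shared more often than narrow ones, and the shares were therefore set side by side within classes of width. In the AKBA list, peaks under 500 bp overlapped a DMSO peak in 12.4% of 234 long-arm and 27.3% of 22 short-arm cases, against 10.1% in the genome. From 500 to 999 bp the shares were 23.1% and 25%, against 20%, and from 1000 to 1999 bp 43.4% and 63.2%, against 48.7%. At 2000 bp or more they were 87.6% on the long arm and 90.0%, 9 of 10, on the short arm, against 89%.

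In the DMSO list, peaks under 500 bp overlapped an AKBA peak in 38.8% of 232 long-arm cases and in 11 of 22 short-arm cases, against 33.9% in the genome. From 500 to 999 bp the long arm had 47.8% of 161 peaks (interval 39.9 to 55.8%) and the short arm 84.6%, 11 of 13 (interval 54.5 to 98.1%), against 53.4%. In the classes from 1000 to 1999 bp and of 2000 bp or more the long arm had 93.3% and 98.1%, and all 8 and 3 short-arm peaks were shared, against 89.5% and 99.3%. The short-arm share was above the long-arm share in each class of both lists, on at most 22 peaks per class.

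**Figure D4:**
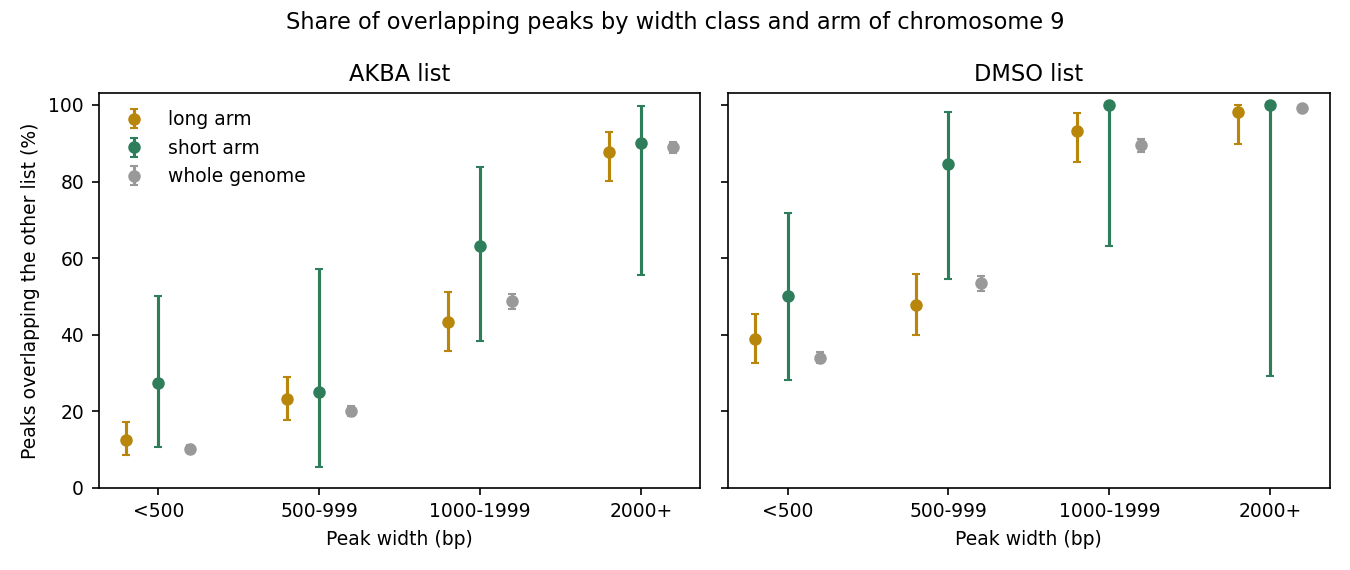
Share of AKBA peaks (left) and DMSO peaks (right) that overlap a peak of the other list, in percent, by class of peak width. Ochre points are the long arm, green points the short arm and grey points the whole genome, and bars are exact 95% binomial intervals for counting error. Shares increase with width in the long arm and the genome, and the short-arm intervals are wide because each class holds at most 22 peaks.

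Where 1 AKBA peak overlapped 1 DMSO peak and no other, the widths could be compared in place. The long arm had 214 such pairs and the short arm 21. The AKBA peak was the wider in 72.9% of long-arm pairs (interval 66.4 to 78.7%) and in 11 of 21 short-arm pairs, 52.4% (29.8 to 74.3%), against 73.1% of 3510 pairs in the genome. Median widths in these pairs were 1310 bp (AKBA) and 779 bp (DMSO) on the long arm, and 1178 bp (AKBA) and 784 bp (DMSO) on the short arm. The median difference within a pair, AKBA minus DMSO, was 490 bp on the long arm and 167 bp on the short arm. A single AKBA peak overlapped several DMSO peaks in 33 long-arm cases, 4.42% of the AKBA peaks there, and in 5 short-arm cases, 7.94%, against 4.43% of the whole AKBA list.

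**Figure D5:**
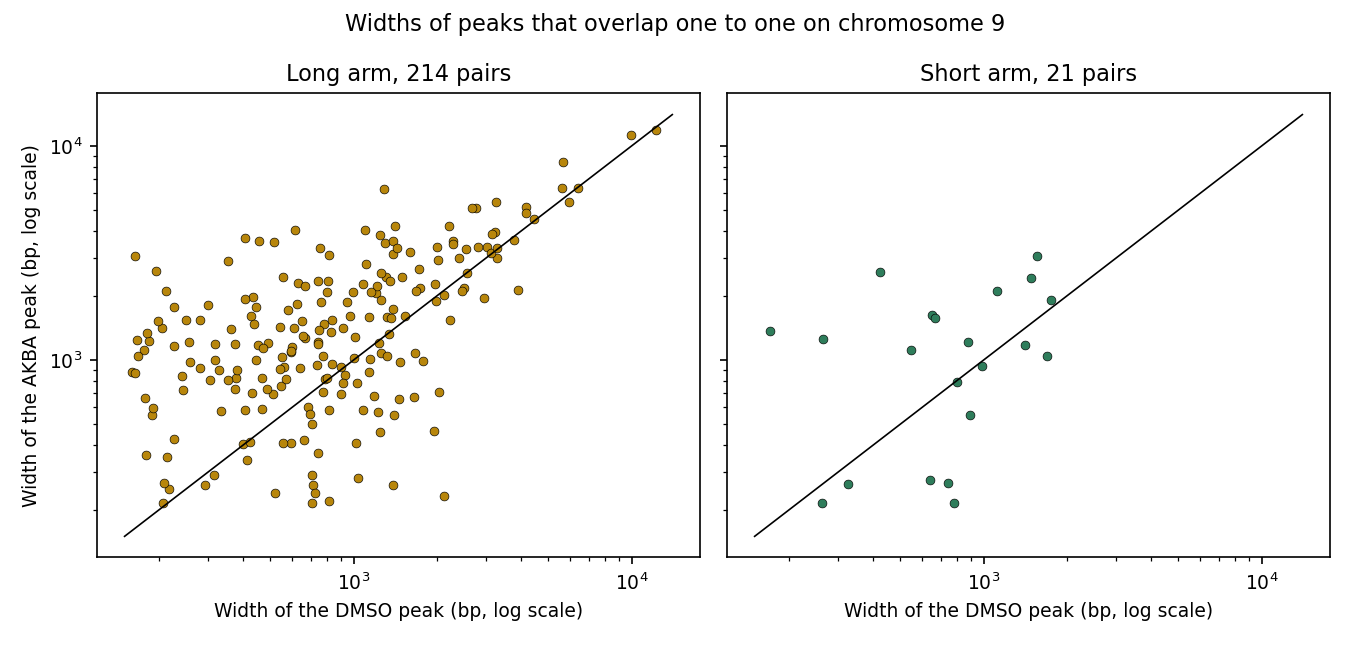
Width of the AKBA peak against width of the DMSO peak (bp, log scales) for peaks that overlap one to one, with 214 pairs on the long arm (left) and 21 on the short arm (right). Each point is a pair and the line marks equal widths. Of the long-arm points 72.9% lie above the line, and of the short-arm points 52.4%.

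Joining the peaks of both lists across gaps of up to 5 kb gave domains, 624 on the long arm and 58 on the short arm. Domains with peaks of both lists made up 37.3% on the long arm and 44.8% on the short arm, domains with AKBA peaks alone 44.2% and 41.4%, and domains with DMSO peaks alone 18.4% and 13.8%. Over the whole genome these shares were 35.7%, 46.6% and 17.7% of 11947 domains. Domains of at least 10 kb numbered 45 on the long arm and 2 on the short arm, 7.21% and 3.45% of the domains, against 3.83% in the genome. AKBA peaks covered more bases than DMSO peaks in 41 of these 45 and in both of the short arm, against 93.9% of such domains in the genome.

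The widest domain of the long arm, from 136494238 to 136530324, was 36.1 kb long and held 9 AKBA and 8 DMSO peaks, which covered 45.8% and 19.0% of it. The second, from 138183109 to 138213935, held 7 AKBA and 5 DMSO peaks covering 33.4% and 16.2%. On the short arm the widest ran from 37024330 to 37038175, where AKBA bases came to 9.23 kb and DMSO bases to 6.47 kb, and the second from 969799 to 981942, with 5.70 and 4.40 kb. Over all domains with peaks of both lists, the median domain was covered to 54.5% by AKBA and 29.5% by DMSO peaks on the long arm, and to 76.4% and 45.0% on the short arm, against 60.5% and 35.2% in the genome.

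Domains called in 1 condition had a median of 662.5 bp (AKBA alone) and 364 bp (DMSO alone) on the long arm. On the short arm these medians were 674 and 418 bp. Domains with both had medians of 3784 bp on the long arm and 2342.5 bp on the short arm. A domain with both needs at least 1 peak of each list, while a domain of 1 condition can be a single peak. The greater length of domains with both thus follows in large part from the definition. The widest with AKBA peaks alone were on the long arm from 128797277 to 128807501, 10.2 kb long with 4 peaks and 3.39 kb of called bases, and from 104196841 to 104203761, with 2 peaks and 2.36 kb. Those of the short arm, from 38410707 to 38415550 and from 34627956 to 34630767, held 2 peaks each, with 0.875 and 1.91 kb. The widest long-arm domain with DMSO peaks alone, from 101161200 to 101171209, was of similar length, 10.0 kb, and held 3 peaks and 2.18 kb of called bases. The second widest, from 128840228 to 128844238, held 2 peaks and 0.775 kb. It lay near the widest domain with AKBA peaks alone, whose last base is at 128807501. On the short arm the widest with DMSO peaks alone, from 36770104 to 36771298, held 2 peaks with 0.515 kb.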

How the data were processed

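H3K27me3 peak lists of HaCaT cells with AKBA or DMSO were used, 1 library each. Per the submitters' processing notes, the build is hg19, and BWA, STAR and MACS2 are listed as tools without a role. For the peak threshold, the use of input DNA and duplicate reads, nothing is given in the sources used here. The authors deposited a start, an end and a score for each peak, and the score ranks peaks within a list. The narrowest peak measured 214 bp (AKBA) and 160 bp (DMSO), and the smallest gap between peaks 857 bp (AKBA) and 641 bp (DMSO). These differences can alter widths, numbers, covered bases and overlaps.

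Positions are 1-based. A peak was counted in the window that holds its centre, and bases were divided at window limits. Arm lengths run from the first to the last peak of either list. Analyses used scipy 1.17.1, pandas 2.3.3 and numpy 2.4.6 under Python 3.11.15, and the overlaps, counted at 1 bp or more, were checked on simulated data and against bedtools 2.31.1. Named regions were the 3 widest and 3 highest-scoring peaks of each list and arm, the windows with extreme ratios or bases, and the 2 widest domains of each kind, of which some are given as values only. Members and rules were chosen with earlier results of these data known. The gene and promoter tables at hand are of GRCh38.p14, so no gene was assigned and no sequence printed.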

Additional observations from a re-analysis of the deposited data

How the results depend on the processing

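The greater density of the long arm, the greater AKBA bases on both arms and the greater AKBA number on the long arm kept their direction under each alternative computed for them. Density ratios of the arms were 5.29 (AKBA) and 4.79 (DMSO) without the last 10 Mb of the long arm, and 5.34 and 4.85 without the window from 135 to 140 Mb. With a score of at least 3, the long arm had a number ratio of 1.67, medians of 1017 bp (AKBA) and 733 bp (DMSO), a DMSO share of 64.8% (short arm 64.3%) and 8 windows at 2 times or more. With equal peak numbers taken from both lists by score, the number ratios were 1.04 on the long arm and 0.935 on the short arm, a setting that fixes the genome ratio at 1. There the long arm had a base ratio of 1.63, an AKBA share of 44.2% and an AKBA median of 910 bp, with 3 long-arm and 1 short-arm windows at 2 times or more. Merging gave the long arm an AKBA share of 38.3% and medians of 963.5 bp (AKBA) and 695 bp (DMSO). Peaks of at least 1 kb gave number ratios of 2.20 (long) and 2.64 (short), a long-arm base ratio of 2.29, AKBA medians of 1650 and 1473 bp, DMSO medians of 1668 and 1690 bp, DMSO shares of 81.1% and 100%, 12 long-arm windows at 2 times or more, and 0 windows at 0.5 times or less on either arm. Each filter was applied to both lists before overlaps were counted. Shares under the score or width minimum thus count peaks that meet a filtered peak of the other list. They cannot be set against the shares by width class. Without 38 to 71 Mb 0 long-arm windows were at 0.5 times or less, and with shifted windows 0 short-arm windows. At 3 times, 1 window of each arm was higher and 0 lower. Shares without the last 10 Mb of the long arm were 28.8% (AKBA) and 50.3% (DMSO). At 50% reciprocal overlap the AKBA shares were 14.2% (long) and 19.0% (short) and the DMSO shares 20.4% and 26.1%. With peaks within 1 kb counted, the long-arm shares were 39.9% (AKBA) and 62.7% (DMSO). Leaving out the window from 135 to 140 Mb and the narrowest peaks was chosen after seeing the data. The cause of these changes was not tested, beyond the fewer peaks that each filter leaves. No paired analysis was possible because each condition has 1 library. Unknown depth and few short-arm peaks limit every comparison of the arms.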

Other observations

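Next to the centromere few peaks were called. Between 65 and 71 Mb the AKBA list had 4 peaks, each of which overlapped a DMSO peak, against 32.2% of the whole AKBA list. The DMSO list had 7 there, of which 3, from 66489495 to 66489915, from 66499077 to 66499848 and from 66800664 to 66800923, had no AKBA overlap. The share of DMSO peaks with an overlap, 4 of 7, is near the 54.5% of the whole list. On the short-arm side, after 38 Mb, 2 of 7 AKBA peaks overlapped a DMSO peak and 5 did not, near the 32.2% of the whole list. Both DMSO peaks there overlapped an AKBA peak, against 54.5% of the whole DMSO list. The last peak of the short arm stood alone after a peak-free stretch of 6.93 Mb. It was called from 45352149 to 45352362 in the AKBA list, with a score of 2.90, and from 45352145 to 45352406 in the DMSO list, with a score of 4.92. The scores come from separate lists and were not subtracted or divided.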
